A study of Mus musculus with 8 samples.

Results

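Small RNA of the purified chromatoid body was set against small RNA of sorted round spermatids, the cells that hold this granule. The members were the rows that carry the same symbol and the same mm9 locus in the table of the MVH immunoprecipitate (IP) and in the table of the round spermatids. There were 827 such rows, of 8959 in the MVH IP table and 1014 in the round spermatid table. By the start of the name they fell into 180 piRNA clusters, 169 microRNA genes, 34 small structured RNA genes, 290 other named genes and 154 transcripts assembled from the reads, which the tables call Cuff with a number.

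The granule material was the MVH IP of adult testis, for which the authors deposited 1 column of values from 2 libraries. It came from C57BL/6 mice of at least 6 weeks. Tubule cells of all types were cross-linked with formaldehyde, sonicated and spun, and a second pellet was incubated with MVH antibody; MVH is the germ cell RNA helicase DDX4. An IP with an antibody to ACR, the acrosomal protease acrosin, served as the control. The round spermatids were 1 library from sorted cells of C57BL/6 testis of the same age range, labelled hetMIWI; MIWI is a name of PIWIL1, and no label describes the genotype further. RNA of 19 to 33 nt was taken from a gel for all libraries. Cell source, purification, genotype label and library all change together between the columns, so their shares in a difference cannot be told apart. With 1 column per group there is no test and no replicate check, and each difference below compares 2 columns. In bulk columns, fewer cells of a type and less RNA per cell cannot be told apart either.

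The chromatoid body is a perinuclear cloud of RNA and protein in haploid male germ cells, built around MVH, Tudor proteins and the PIWI protein MIWI. Different small RNAs meet there: piRNAs, which bind PIWI proteins and come from long single-stranded transcripts of genomic clusters, and microRNAs, which bind Argonaute proteins and pair with mRNA through bases near their 5′ end. microRNAs are cut by Dicer from short hairpins, whereas piRNAs are made without it.

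The sequences of the microRNAs on which the results turn are given first. RefSeq held entries for 142 of the 169 microRNA genes, 137 of them under the same symbol and 5 under a synonym, and the sequences are those of its GRCm38.p6 release. Each is written 5′ to 3′, with the seed, bases 2 to 8 of the mature microRNA, in capitals. The tables give 1 value per locus, not per arm, so a sequence names the arm usually described as the main one and not the one that was measured. The first set is the miR-34 and miR-449 family, germ cell microRNAs joined by 1 seed, which include the 2 highest shared rows of MVH IP. For Mir34c the whole hairpin is shown, and the capitals mark the same seed found in it.
miR-34b-5p: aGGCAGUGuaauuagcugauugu
miR-449a-5p: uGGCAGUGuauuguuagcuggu
miR-449c-5p: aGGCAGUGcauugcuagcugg
Mir34c hairpin: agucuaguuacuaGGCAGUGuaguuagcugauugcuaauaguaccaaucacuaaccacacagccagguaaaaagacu

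The second set comes from the miR-17-92 clusters and their paralogs, in which microRNAs cut from the same transcript had differences of opposite sign. For the negative ones, Mir25 and Mir92-2, the interval from counting error spans both signs. The set carries 3 different seeds.
miR-17-5p: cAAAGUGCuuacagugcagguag
miR-20a-5p: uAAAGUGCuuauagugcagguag
miR-93-5p: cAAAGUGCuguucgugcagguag
miR-19a-3p: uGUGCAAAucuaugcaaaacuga
miR-19b-3p: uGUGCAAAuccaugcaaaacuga
miR-25-3p: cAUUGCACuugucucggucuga
miR-92a-3p: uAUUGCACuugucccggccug
Aligned from the 5′ end, miR-17-5p and miR-20a-5p share 21 of 23 bases, miR-19a-3p and miR-19b-3p share 22 of 23, and miR-25-3p and miR-92a-3p share 18 of 22. Reads of such close copies can be split between loci by the authors' counting.

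The third set holds single microRNAs described below for a high or a low value, together with a pair that shares a seed but had values of opposite sign. For the negative member of the pair, Mir125a, the interval from counting error spans both signs.
miR-205-5p: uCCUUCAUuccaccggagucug
miR-184-3p: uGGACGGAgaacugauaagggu
miR-148b-3p: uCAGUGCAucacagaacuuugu
miR-125a-5p: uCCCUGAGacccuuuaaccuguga
miR-125b-5p: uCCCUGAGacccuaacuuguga
miR-465b-3p: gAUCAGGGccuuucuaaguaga
The miR-465b-3p sequence is the same, base for base, as miR-465a-3p of the gene listed as Mir465.

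The unit of both columns is FPKM, a read number scaled to the length of the feature and to the size of the library. Cufflinks-type tools divide by an effective length that becomes very small for a hairpin, so microRNA genes held 97.5% of the summed FPKM of the shared rows in MVH IP and 92.7% in round spermatids. By reads the order was the opposite. Values of the low microRNA genes fell on whole multiples of a step, which gives the reads behind each value. In round spermatids, 86 of 141 low microRNA genes lay within 0.02 of a whole number of reads, against 21 with the step moved by 1%. In MVH IP, 79 of 117 low microRNA genes were whole sums of 2 different steps, against 0 with the steps moved by 1%, and 69 of the 100 genes with a single solution used both steps. An MVH IP read was worth 7.91 or 15.6 round spermatid reads, so MVH IP reads are given as a range from the larger to the smaller step. In these terms the shared piRNA clusters held 337023 to 663753 reads in MVH IP and 7572746 in round spermatids, and the microRNA genes 2257 to 4445 reads in MVH IP and 16882 in round spermatids. The median microRNA gene thus rested on 4.53 to 8.92 reads in MVH IP and on 19.5 in round spermatids. No reads could be derived for other named genes and assembled transcripts, whose transcript lengths are not known.

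Levels were compared as log2(FPKM + 1), each column centred on its own median over the 180 shared piRNA clusters, and a row counts as higher or lower when the centred difference, MVH IP minus round spermatids, is at least 1 or at most -1, a change of 2-fold. Rows at or above 1 FPKM in either column were kept, 821 of 827. The added 1 FPKM shrinks the differences of rows near or below that level. Of the 821 rows, 262 (31.9%) were at least 2-fold higher in MVH IP and 170 (20.7%) were at least 2-fold lower, and the median difference was 0.31. Among the 170 lower rows, 114 were listed at 0 in MVH IP, and 8 of the 262 higher rows were listed at 0 in round spermatids. Another choice of centre adds 1 constant to every difference: -0.59 when all shared rows are the centre, -0.47 with no centring, -1.48 with the column sums and -2.86 with the microRNA genes themselves as the centre. All statements on direction are therefore relative to the piRNA clusters.

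The shared microRNA genes stood higher in MVH IP, with a median FPKM of 17667 in MVH IP and 3364 in round spermatids. Their median centred difference was 2.37 (quartiles 1.04 and 3.95), with 127 of 169 genes (75.1%) past 2-fold upward and 16 (9.47%) past 2-fold downward; the median is negative, at -0.49, only when the microRNA genes themselves are the centre. A further 90 microRNA rows of round spermatids and 48 of MVH IP had no match in the other column. They are left out of this median and these counts, and how they would shift them was not tested. Small structured RNA genes had a median of -8.06 over 33 rows, with 4 higher and 29 lower, but 26 of those 29 were listed at 0 in MVH IP. Other named genes had a median of 0.42 over 287 rows, with 83 higher and 40 lower. Assembled transcripts had -1.42 over 152 rows, with 37 higher and 79 lower, of which 71 were listed at 0 in MVH IP. Among rows above 0 in both columns the assembled transcripts had a median of 0.77 over 78 rows and the structured RNA genes 2.43 over 7, so both negative medians come from the rows at 0.

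**Figure D1:**
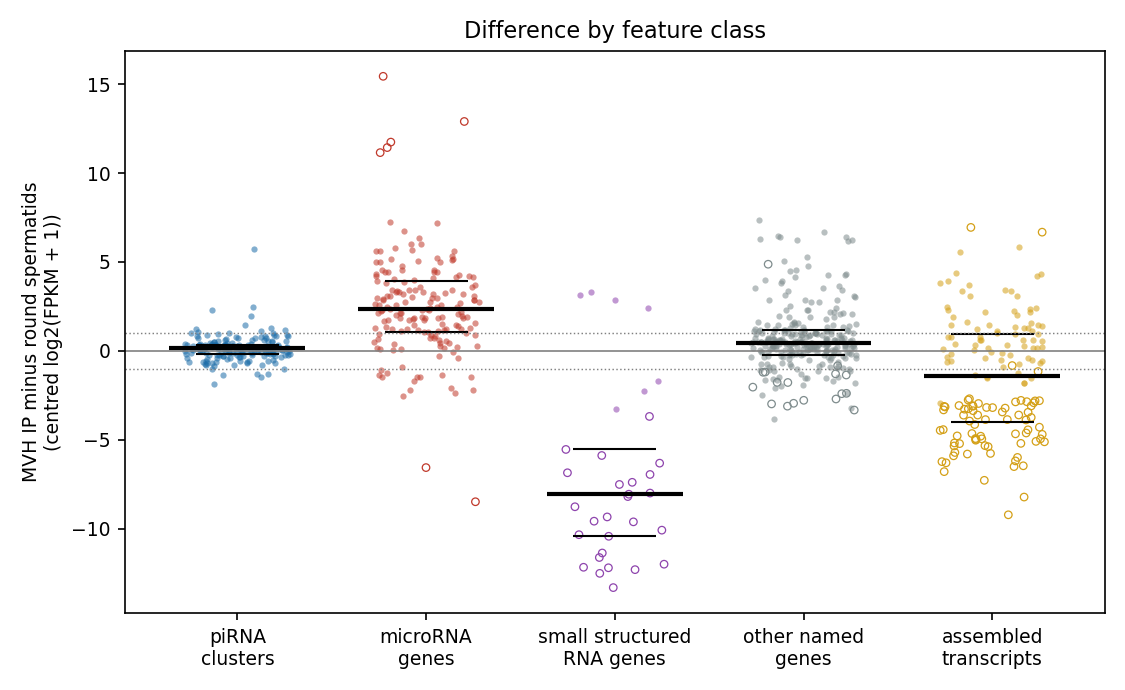
Centred log2 difference, MVH IP minus round spermatids, for each of the 821 kept rows by feature class. Thick bars are medians and thin bars quartiles; open circles are rows listed at 0 in 1 of the columns, which make up 26 of the 29 lower structured RNA genes. The microRNA genes centre on 2.37 and the piRNA clusters on 0.13.

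Ranks, which need no common scale, are given over the 827 shared rows, with 1 as the highest. The median rank of the microRNA genes was 86 in MVH IP and 102 in round spermatids, the first of which is about as high as 169 of 827 rows can reach. piRNA clusters had a median rank of 294.5 in MVH IP and 262.5 in round spermatids, and structured RNA genes had 766.5 in MVH IP, where most share the rank of the rows at 0, and 227 in round spermatids. The rank of 1 class depends on where the others stand. Across genes above 0 in both columns, Spearman's rho between MVH IP and round spermatids was 0.94 for 180 clusters, 0.61 for 162 microRNA genes, 0.54 for 270 other named genes and 0.76 for 78 assembled transcripts. With the kept rows at 0 included, it was 0.63 for the microRNA genes, 0.59 for other named genes and 0.34 for assembled transcripts, so the order of the classes depends on the rows at 0. These coefficients describe rows of 1 pair of columns, which are not independent replicates and differ in depth between classes.

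The piRNA clusters, loci whose transcripts are cut into piRNAs, had close levels in both columns. Their centred differences had a median of 0.13, quartiles of -0.19 and 0.35 and an SD of 0.74 across clusters. Of the 180, 11 lay 2-fold or more above the round spermatids and 6 as far below, and 128 were within 1.5-fold. Cluster 79 (chr8:94713347-94717740) was the highest cluster of the round spermatids; it had 3777 FPKM in MVH IP and 5174 in round spermatids, a centred difference of 0.02. Cluster 39 (chr5:115300315-115302629) had 4308 FPKM in MVH IP and 3601 in round spermatids, a difference of 0.73. Clusters 107 and 189, also among the 5 highest of both columns, had differences of 0.20 and 0.08. The exceptions among the highest clusters were cluster 177 of MVH IP and cluster 91 of round spermatids.

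Cluster 177 (chr17:39983505-39984882) stood apart from all others. RefSeq lists ribosomal RNA sequence on chromosome 17 in a later build, and no mm9 annotation was used here, so whether this locus overlaps it was not determined, and whether its reads are piRNAs is not known. It had 28330 FPKM in MVH IP and 740.3 in round spermatids, a centred difference of 5.73 with a 95% counting interval from 5.66 to 5.80. It was the highest piRNA cluster in MVH IP and ranked 252nd among the shared rows in round spermatids. The pellet held it at 11581 FPKM, and the lysate of the supernatant table at 4635 FPKM. In the ACR table, it had 4257 FPKM in the ACR IP, the control, and 9316 in the lysate, whereas cluster 91 had 11.2 FPKM in the ACR IP and 2152 in the lysate. On the log2 scale its ACR IP level minus its lysate level was -1.13 before centring, the highest of the 180 clusters, followed by cluster 39 at -3.63. Without cluster 177 the median difference of the clusters was 0.12 and that of the microRNA genes 2.36.

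Cluster 91 (chr9:67578035-67591728) was the second highest cluster of the round spermatids and lay lower in MVH IP. It had 1244 FPKM in MVH IP and 4485 in round spermatids, a difference of -1.38 with an interval from -1.43 to -1.33, on 3026 to 5959 reads in MVH IP and 169964 in round spermatids. Clusters 158, 160 and 149 lie within 165668 bp of chromosome 14, between 45392439 and 45558106, and were low together. Cluster 158 had 26.2 FPKM in MVH IP and 138 in round spermatids (-1.88), cluster 160 had 532 FPKM in MVH IP and 2026 in round spermatids (-1.46), and cluster 149 had 600.2 FPKM in MVH IP and 2019.8 in round spermatids (-1.28). An assembled transcript directly beside cluster 160, Cuff.1558, was low as well, with 474 FPKM in MVH IP and 2296 in round spermatids (-1.80). Their neighbours were less shifted: cluster 150 had -0.74, and cluster 159, between 158 and 160, had 0.01. The lower clusters were completed by cluster 113 on chromosome 10 (-1.32) and cluster 86 on chromosome 8 (-1.04).

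The higher clusters other than 177 were mostly short and of low level. Cluster 16 (chr3:124103059-124128946) had 174 FPKM in MVH IP and 43.7 in round spermatids, a difference of 2.44, and cluster 29 (chr5:113786110-113787245) had 478 FPKM in MVH IP and 136 in round spermatids, a difference of 2.28. The remaining 8 had differences from 1.02 to 1.98. By length, the median difference was 0.38 for the 46 shortest clusters, 0.23 for the next 44, 0.15 for the next 45 and -0.0040 for the 45 longest, and the SD was 1.09 in the shortest group and 0.54 in the longest.

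In the lysate, the whole extract of tubule cells from which MVH IP was purified, most of these clusters were near their MVH IP level. For 16 of the 17 clusters past 2-fold, all but cluster 177, MVH IP was within 2-fold of the lysate. Over all 180 clusters the SD of the difference was 0.35 against the lysate and 0.74 against round spermatids, and 166 clusters were within 1.5-fold of the lysate against 128 of the round spermatids. Spearman's rho of the clusters with MVH IP was 0.99 for the pellet and for the lysate, 0.94 for the round spermatids and 0.86 for the ACR IP, in which 42 clusters were listed at 0. MVH IP, pellet and lysate share their source of cells, and the round spermatids do not.

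**Figure D2:**
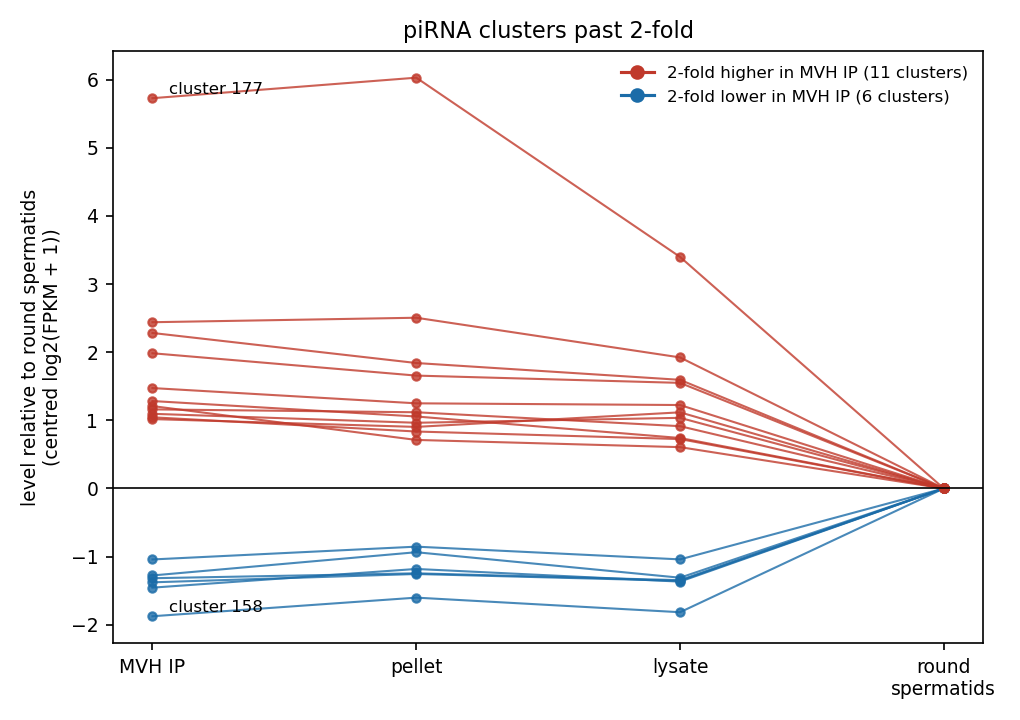
Centred log2(FPKM + 1) of the 17 piRNA clusters past 2-fold in MVH IP, pellet, lysate and round spermatids, each relative to its round spermatid level. For 16 of the 17 the MVH IP point lies within 2-fold of the lysate point, and cluster 177 is the exception; since the clusters were picked by their distance from the round spermatids, the side on which pellet and lysate lie is partly built in.

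The microRNA genes were spread widely around their median. Counted in reads of the shared rows alone, there were 0.670 microRNA reads per 100 piRNA cluster reads in MVH IP and 0.223 in round spermatids, a ratio of 3.004. Without Mir34c the ratio was 2.32. The counting interval was an exact Clopper-Pearson interval at the 95% level on the fewest MVH IP reads. Reads of both columns were first rounded to the nearest whole number, up or down, which matters most for genes with few reads. The interval lay above 0 for 91 of the 168 microRNA genes of known length. It lay below 0 for 5, namely Mir467d, Mir465b-1, Mir465b-2, Mir669c and Mir184. It covers counting error only, since reads were amplified without molecular identifiers. Of the 73 microRNA genes with at least 5 reads in both columns, 57 were past 2-fold upward and 3 downward, with a median of 1.88.

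**Figure D3:**
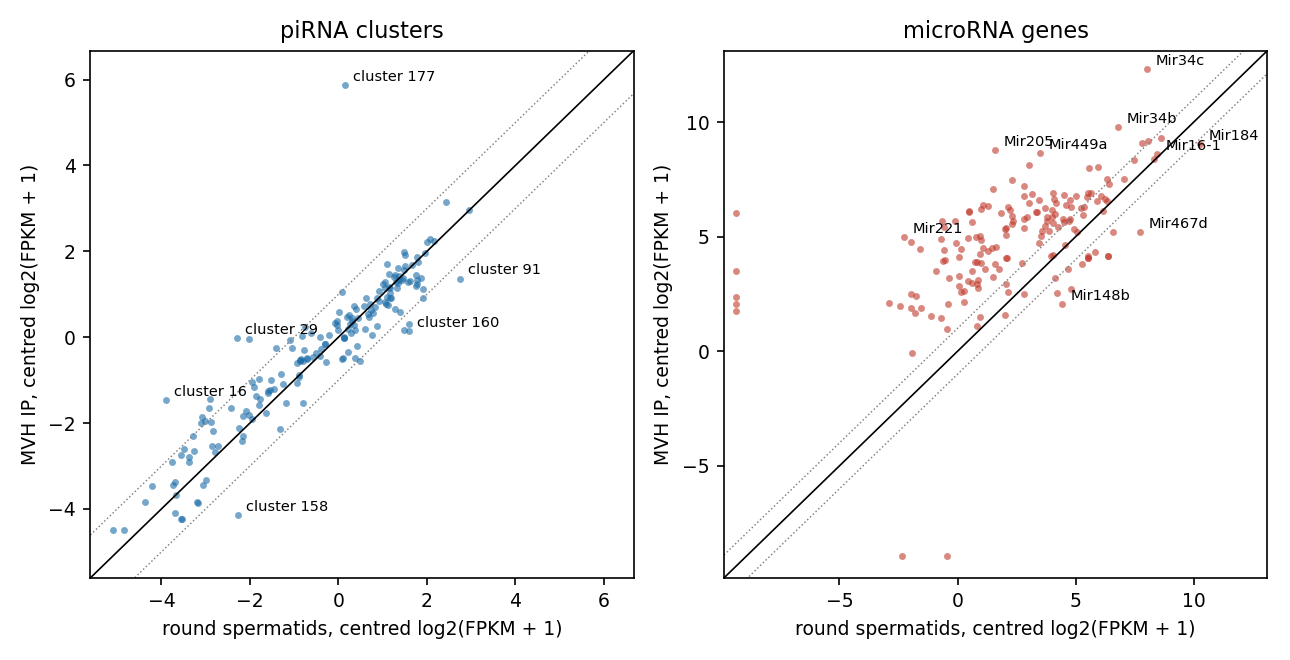
Centred log2(FPKM + 1) in MVH IP (vertical axis) against round spermatids (horizontal axis) for 180 piRNA clusters and 169 microRNA genes. The solid line marks equal centred levels and the dotted lines 2-fold. The clusters follow the line with cluster 177 far above it, and most microRNA genes lie above the line, with Mir184, Mir467d and Mir148b below it.

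The difference was smaller for microRNA genes that were deep in round spermatids. It had a median of 4.43 over 49 genes with fewer than 5 round spermatid reads, 3.06 over 35 genes with 5 to under 20, 1.82 over 47 genes with 20 to under 100, and 0.63 over 37 genes with 100 or more. In the deepest group 13 genes were higher and 11 lower. The round spermatid value enters both the grouping and the difference, so part of this order is built in. Grouped by the lysate level, which the difference does not contain, the medians were 2.95 for the 43 lowest genes, 2.29 and 2.38 for the next groups of 42 each, and 1.77 for the 42 highest. By chromosome, 139 autosomal microRNA genes had a median of 2.45 and 30 on the X chromosome 1.77.

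Along the purification, the microRNA genes of MVH IP lay between the lysate and the round spermatids. Over 148 microRNA genes listed in every column, the microRNA median stood above the cluster median by 5.25 in MVH IP, 4.95 in the pellet, 7.13 in the supernatant, 6.83 in the lysate and 2.81 in round spermatids. In the ACR IP it was -2.39, with 81 of the 148 genes listed at 0. The ACR table did not treat all microRNA genes as the supernatant table did. For the same lysate, Mirlet7a-1 had 4917 FPKM in the ACR table and 147772 in the supernatant table. Mir34c had 8198840 FPKM in the ACR table and 3951080 in the supernatant table. How much this adds to the low ACR IP value was not tested. Against the lysate, the median of the 169 microRNA genes was -1.70, with 14 past 2-fold upward in MVH IP and 119 downward. Against the pellet it was 0.28, with 40 higher and 12 lower. Relative to piRNA clusters, microRNA genes were thus lower in MVH IP than in the lysate and higher in MVH IP than in round spermatids.

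**Figure D4:**
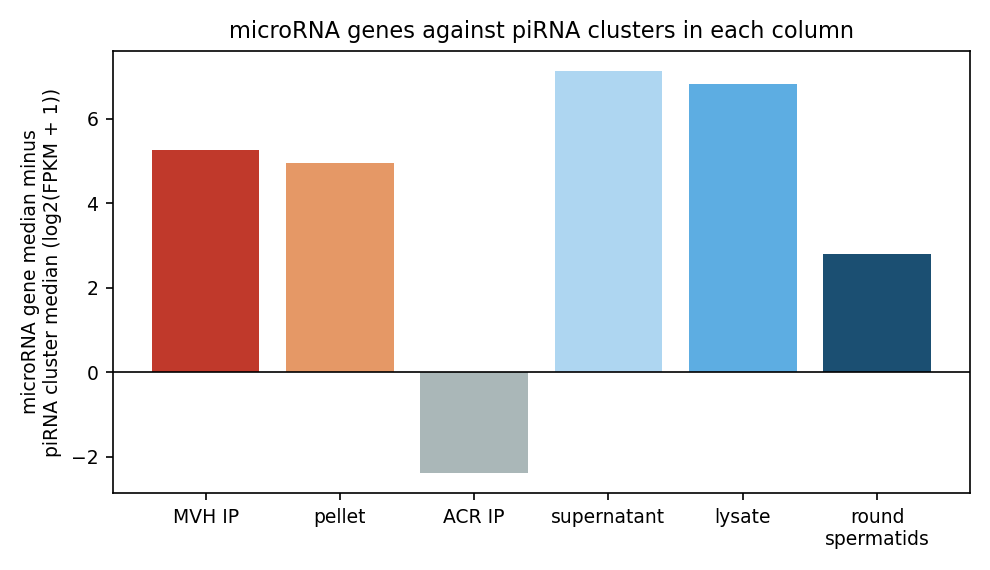
Median log2(FPKM + 1) of 148 microRNA genes minus that of 180 piRNA clusters in each deposited column. The bar of MVH IP, at 5.25, is close to the pellet at 4.95, below the lysate at 6.83 and above the round spermatids at 2.81. The ACR IP bar, at -2.39, rests on a column with 81 of 148 genes listed at 0. Some microRNA genes also had much lower lysate values in the ACR table than in the supernatant table.

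The miR-34 and miR-449 family, microRNAs of meiotic and haploid germ cells and of ciliated cells, stood far above the round spermatids and rested on deep members. Mir34c (chr9:50911139-50911215) had 2472030 FPKM in MVH IP and 175682 in round spermatids, a centred difference of 4.29 with a counting interval from 4.12 to 4.45, on 580 to 1143 reads in MVH IP and 642.5 in round spermatids. It ranked first in MVH IP and sixth in round spermatids among the shared rows. Of the reads of the shared microRNA genes of known length, it held 25.7% in MVH IP and 3.81% in round spermatids. Mir34b, 451 bp away on the same transcript, had 423339 FPKM in MVH IP and 74923 in round spermatids, a difference of 2.97. Mir449a (chr13:113827742-113827832) had 195906 FPKM in MVH IP and 7516 in round spermatids, a difference of 5.18 with an interval from 4.64 to 5.74. Mir449c had 2105 FPKM in MVH IP and 88.7 in round spermatids, a difference of 5.02 that rests on 1 round spermatid read. All 4 were past 2-fold, and with the family's reads summed the difference was 4.02, with an interval from 3.89 to 4.16; it stays positive under each of the other centres. Against the lysate they were lower, Mir34c by a difference of -0.96 and Mir449a by -1.43.

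The miR-17-92 clusters and their paralogs were mixed, and differences between seeds were not tested. Of the members with the seed AAAGUGC, 3 were at least 2-fold higher in MVH IP with intervals above 0: Mir17 with 22815 FPKM in MVH IP and 3312 in round spermatids (3.26), Mir20a with 52406 FPKM in MVH IP and 4715 in round spermatids (3.95), and Mir93 with 47571 FPKM in MVH IP and 7306 in round spermatids (3.17). Mir106b of the same seed had 1.11, with an interval from -2.03 to 3.15. The members with the seed GUGCAAA were also higher. Mir19b-2 had 35784 FPKM in MVH IP and 1345 in round spermatids, a difference of 5.20 on 6.5 round spermatid reads, Mir19a had 6.03 on 1 round spermatid read, and Mir19b-1 was listed at 0 in round spermatids with 32083 FPKM in MVH IP. The members with the seed AUUGCAC rested on few reads. Mir25 had 8134 FPKM in MVH IP and 31045 in round spermatids, a difference of -1.46 with an interval from -3.50 to 0.36, and Mir92-2 had 1463 FPKM in MVH IP and 2719 in round spermatids, a difference of -0.42 on 0.587 to 1.16 MVH IP reads, with an interval from -5.04 to 3.02. Both intervals include 0, so no direction is shown for this seed. Mir18, of another seed, had 0.70. Mir25, Mir93 and Mir106b lie at 1 locus (chr5:138605817-138613090), so values of both signs came from 1 locus, with intervals that include 0 for Mir25 and Mir106b. The list as a whole had a median of 3.22 over 10 genes, with 7 higher and 1 lower; that median is positive under all centres tried, whereas Mir106b turns negative with the column sums or the microRNA genes as the centre.

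The let-7 family, developmental microRNAs of most differentiated cells, was higher in MVH IP. Its 12 genes had a median of 1.32, against 2.37 for all microRNA genes, with 10 at least 2-fold higher and 0 lower, a share to be read against the 75.1% of all microRNA genes that were higher, and a summed difference of 1.26 with an interval from 1.05 to 1.47; the median is 2.48 without the numbered copies and turns negative with the column sums or the microRNA genes as the centre. Mirlet7g had 122639 FPKM in MVH IP and 31975 in round spermatids, a difference of 2.41, and Mirlet7d had 25123 FPKM in MVH IP and 3455 in round spermatids, a difference of 3.33. Mirlet7c-1 had 45742 FPKM in MVH IP and 53470.3 in round spermatids, a difference of 0.25, and Mirlet7c-2 had 0.39. The family was thus not uniform, and the 2 genes for let-7c were the closest to the round spermatids.

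The X-linked testis microRNAs, a fast-evolving group from a few stretches of the X chromosome, were mixed. Among 18 genes, 9 were past 2-fold upward and 3 downward, with a median of 1.26 and a summed difference of 0.59 with an interval from 0.33 to 0.83; both turn negative with the column sums or the microRNA genes as the centre. Mir742 had 33141 FPKM in MVH IP and 938 in round spermatids, a difference of 5.61 on 2 round spermatid reads. Mir741, 1 of the 11 highest shared rows of both columns, had 155783 FPKM in MVH IP and 118970 in round spermatids, a difference of 0.86. The Mir465 copies went the other way. Mir465b-1 and Mir465b-2 each had 8699 FPKM in MVH IP and 54849.8 in round spermatids, a difference of -2.18 with an interval from -5.39 to -0.46. Mir465 had 18044 FPKM in MVH IP and 63616 in round spermatids, a difference of -1.35, and Mir465c-2 had -0.05. These copies share mature sequences, so the values of the separate genes are uncertain and identical where the reads were divided equally; without such copies the median of the list was 2.11.

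Other families are given by their medians, beside 2.37 and 75.1% higher for all microRNA genes. The miR-15 and miR-16 family had 1.87 over 7 genes, with 5 higher, but a summed difference of 0.49 because its 2 deepest genes hardly differed: Mir16-1 had 187010 FPKM in MVH IP and 236154 in round spermatids (0.14), and Mir16-2 had 162127 FPKM in MVH IP and 216277 in round spermatids (0.06). Together these genes held 6.88% of the reads of the shared microRNA genes in MVH IP and 18.6% in round spermatids. The miR-10, miR-99 and miR-125 family had 2.27 over 8 genes, with 7 higher and 1 lower. The miR-23, miR-27 and miR-24 clusters had 2.23 with all 6 genes higher, and 3.06 without numbered copies, the miR-181 family 3.06 with all 5 higher, and the 2 shared genes of the miR-29 family 3.71 and 5.16. The 5 miR-181 genes had only 8.16 to 16.1 summed reads in MVH IP and 22.9 in round spermatids, and 2 of their intervals lay above 0. Their numbered copies had nearly the same differences, Mir181a-1 and Mir181a-2 as well as Mir181b-1 and Mir181b-2. The miR-30 family had 0.81 over 6 genes, with 2 higher and 2 lower, and a summed difference of 0.31 with an interval from -0.22 to 0.78. With the microRNA genes as the centre, the medians below 2.86 in this paragraph turn negative, and with the column sums that of the miR-30 family does.

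Within the miR-125 group, microRNAs with the seed CCCUGAG had values of both signs. Mir125b-1 had 40591 FPKM in MVH IP and 16269 in round spermatids, a difference of 1.79, and Mir125b-2 had 52562 FPKM in MVH IP and 21776 in round spermatids, a difference of 1.74. Mir125a had 9637 FPKM in MVH IP and 37775 in round spermatids, a difference of -1.50 on 1.52 to 3 MVH IP reads, with an interval from -4.17 to 0.79. miR-125a-5p and miR-125b-5p share 15 bases when aligned from the 5′ end.

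**Figure D5:**
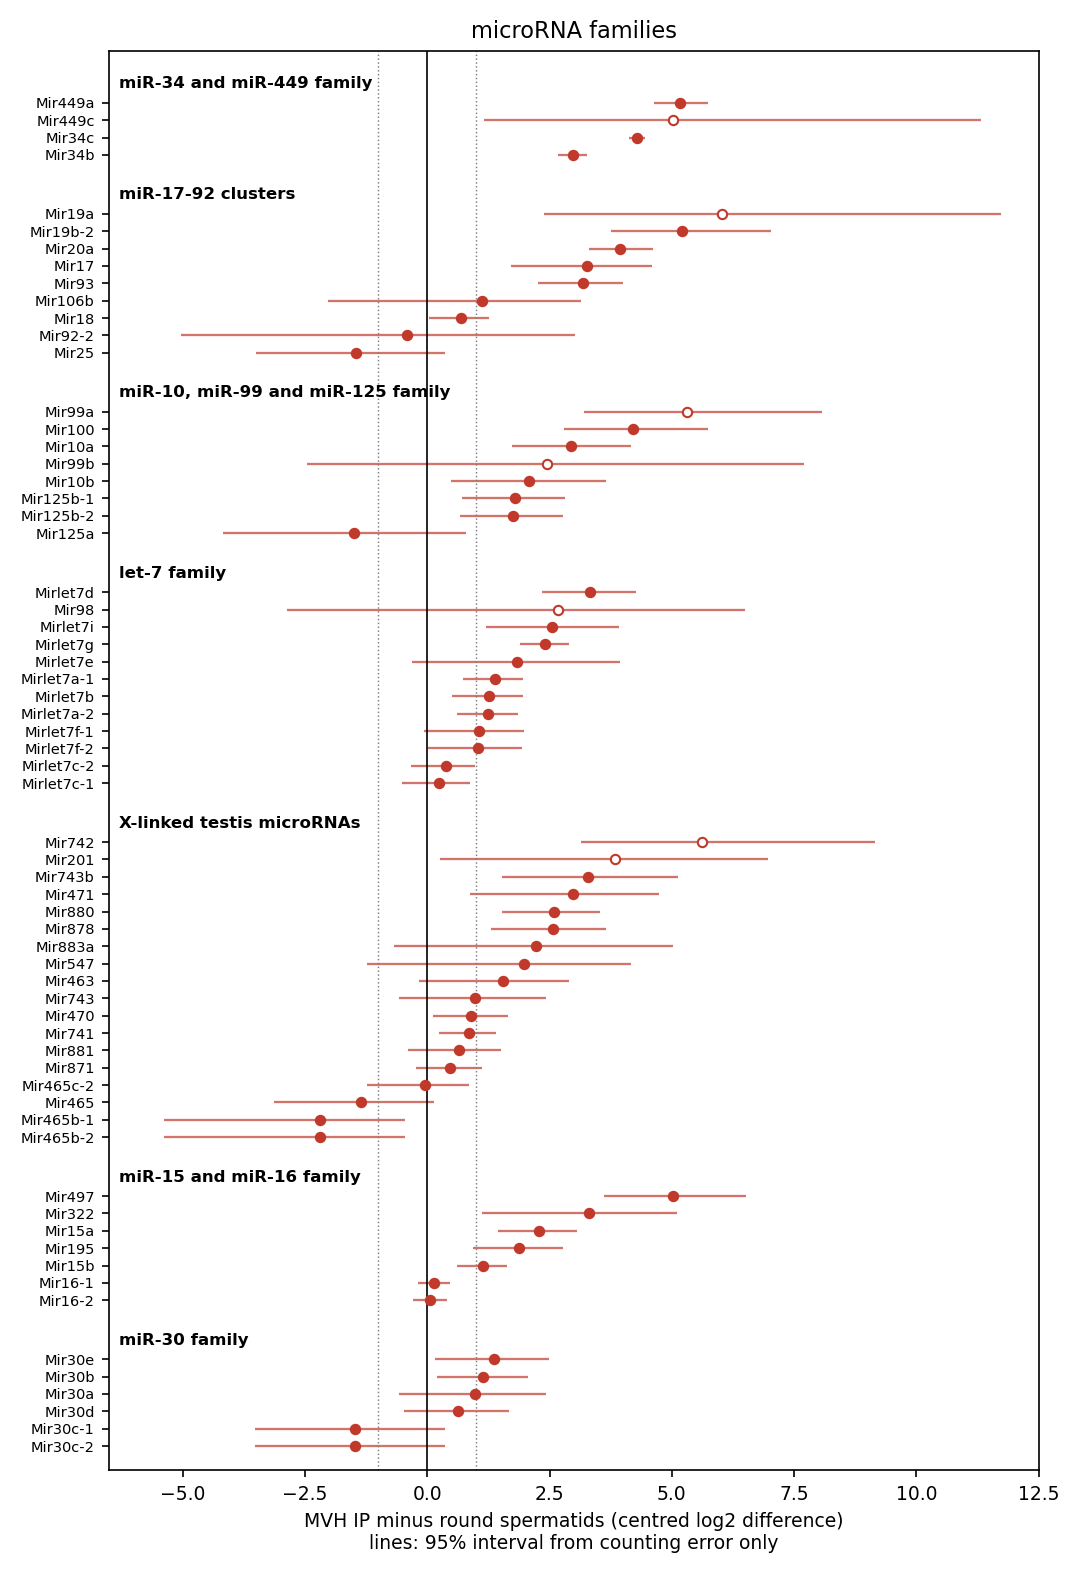
Centred log2 difference, MVH IP minus round spermatids, for the genes of 7 microRNA lists, with 95% counting intervals as lines; open points have fewer than 5 round spermatid reads, and Mir19b-1, listed at 0 in round spermatids, is left out. The 4 miR-34 and miR-449 genes lie between 2.97 and 5.18, whereas Mir25, Mir92-2, Mir125a, the Mir465 copies and both Mir30c genes lie below 0; another centre shifts all points by 1 constant, and with the microRNA genes as the centre, of the medians only those of the first 2 lists shown are above 0.

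The microRNAs that were lower in MVH IP included the top row of the round spermatids. Mir184 (chr9:89697098-89697166), a conserved microRNA of testis and several epithelia, had 255902 FPKM in MVH IP and 828641 in round spermatids, a difference of -1.22 with an interval from -1.71 to -0.80. It ranked sixth in MVH IP and first in round spermatids among the shared rows. It held 1.88% of the reads of the shared microRNA genes in MVH IP and 12.7% in round spermatids. Mir467d had 17667 FPKM in MVH IP and 143662 in round spermatids, a difference of -2.55 with an interval from -3.93 to -1.35; it was the 1 microRNA gene whose interval lay wholly past 2-fold lower. Mir669c had 8569 FPKM in MVH IP and 30524 in round spermatids, a difference of -1.36. Both belong to a tandem array of closely similar microRNA genes (chr2:10292078-10516880). Mir467a-6 and Mir467b of this array were listed at 0 in round spermatids, so the split between copies is uncertain. Summed over the 4 shared copies, the difference was -1.94 with an interval from -2.84 to -1.14. These 4 were part of 9 rows of such copies in MVH IP and 7 in round spermatids. At the same locus, Mir467a-1 (25125 FPKM in MVH IP) and Mir466 (10589 FPKM in round spermatids) had no matching row. The array as a whole was therefore not compared. Mir148b had 2025 FPKM in MVH IP and 14626 in round spermatids, a difference of -2.38 on 1 to 1.97 MVH IP reads. Mir139 (-2.07), Mir672 (-1.70), and Mir30c-1 and Mir30c-2 (-1.47 each) were low on similarly few MVH IP reads, and their intervals reach above 0. Mir184 was higher in MVH IP than in the lysate by 0.74, whereas Mir467d was lower than in the lysate by a difference of -1.21.

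The highest single microRNAs were mostly rare in round spermatids. Mir205 (chr1:195333657-195333724), a microRNA of stratified epithelia and glands, had 214040 FPKM in MVH IP and 2031 in round spermatids, a difference of 7.19 with an interval from 5.84 to 8.91 on 33.8 to 66.6 reads in MVH IP and 5 in round spermatids. It ranked 7th in MVH IP and 137th in round spermatids. In the lysate of the supernatant table Mir205 had 3807 FPKM, and in the ACR table it had 8493 FPKM in the ACR IP and 7926 in the lysate. Before centring, Mir205 was thus near the lysate level in the control IP, where Mir34c had 78133 FPKM against 8198840 in the lysate. The reads behind the ACR IP values were not derived, and 81 of 148 microRNA genes were listed at 0 there. The ACR IP value of Mir205 may therefore rest on few reads. Mir221 (7.24), Mir141 (6.76), Mir2137 (6.33) and Mir193 (6.03) each rested on about 1 round spermatid read or fewer.

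microRNAs best known from other tissues were measured in both columns. All 8 shared microRNAs of the list for liver, brain, surface epithelia and pancreatic islets were at least 2-fold higher in MVH IP, against 75.1% of all microRNA genes, with a median of 4.54 against 2.37; Mir9-1, Mir9-2 and Mir9-3 are copies of 1 microRNA with nearly the same difference. Their summed reads were 98.4 to 194 in MVH IP and 341 in round spermatids, a summed difference of 2.64 with an interval from 2.30 to 2.96. By the same summed measure, all autosomal microRNA genes had 1.62 and those on the X chromosome 0.78. Testis also holds some microRNAs of this list: Mir375 was among the 10 highest shared rows of both columns, with 260361 FPKM in MVH IP and 149228 in round spermatids (1.28). Mir375 alone held 303 of the 341 round spermatid reads, so the sum mostly follows this gene. The muscle microRNA Mir1-1 had 133640 FPKM in MVH IP and 5469 in round spermatids, a difference of 5.08, and 1236 FPKM in the lysate. The vessel wall and muscle list had a median of 3.11 over 5 genes, or 2.13 without numbered copies, with 4 higher and Mir145 lower (-1.09), and 55.8 to 110 reads in MVH IP and 160 in round spermatids. Of the blood list, Mir451 (5.02) and Mir142 (4.17) were higher and Mir486 was listed at 0 in MVH IP. These 3 together had 9.54 to 18.8 reads in MVH IP and 11.5 in round spermatids. The blood list had 4 rows in MVH IP and 6 in round spermatids, so it was compared only in part. Of its unmatched round spermatid rows, Mir155 had 8439 FPKM and Mir150 had 3282 FPKM. Mir202, of Sertoli and Leydig cells, had 18503 FPKM in MVH IP and 8128 in round spermatids (1.66), and 222511 FPKM in the lysate.

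Relative to the lysate these microRNAs did not behave alike. Mir1-1, Mir205 and Mir122a were higher in MVH IP than in the lysate, by 6.47, 5.53 and 4.85, whereas Mir202, Mir451 and Mir375 were lower, by differences of -3.87, -4.29 and -1.005. The value of Mir122a rests on only 1.51 to 2.97 reads in MVH IP and on 299 FPKM in the lysate. Sertoli, Leydig, blood and peritubular genes had no shared row, so these cell types could not be followed through gene loci. With the lists of all these microRNAs left out, a choice made after seeing the data, the median difference of the remaining microRNA genes was 2.25.

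Small structured RNA genes, which guide RNA modification or splicing, were mostly listed at 0 in MVH IP, but at a depth that cannot show a difference. Of 25 kept C/D box small nucleolar RNA genes, which guide methylation of ribosomal RNA, 2 were higher and 23 lower, and all 23 were listed at 0 in MVH IP. A count of 0 in MVH IP, taken as up to 3 reads of the larger step, allows 46.7 round spermatid reads before centring, and 129.6 round spermatid reads would be needed before a 0 meant a 2-fold lower centred level. The structured RNA genes listed at 0 had 1 to 26 round spermatid reads, with a median of 2. Scarna17, a guide RNA of the Cajal body, had the most, with 14166 FPKM and 26 reads in round spermatids, and its counting interval still reached 1.72. With every such 0 set to its bound of 3 reads the median of the class was 4.06 in place of -8.06, so no direction can be given for the class. Above 0 in both columns, Rnu12, the minor spliceosome RNA U12, had 1192 FPKM in MVH IP and 5461 in round spermatids, a difference of -1.72 with an interval from -3.76 to 0.10. Rnu11, which acts with U12, had 4274 FPKM in MVH IP and 594 in round spermatids, a difference of 3.32 with an interval from 0.63 to 5.34. Rnu1b2 (-3.30) and Rmrp (-2.27) were also lower, and Snord104 (2.85) and Snord2 (2.43) were also higher. Among the 32 structured RNA genes of known length, 1 interval lay above 0 and 0 lay below.

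Small RNA on other named genes was mostly low, with a median of 18.0 FPKM in MVH IP and 14.2 in round spermatids, and it measures fragments or piRNAs of 19 to 33 nt at these loci, not the mRNA. The largest differences were upward. Smc6, a subunit of a chromosome maintenance complex, had 1528 FPKM in MVH IP and 12.05 in round spermatids, a difference of 7.35. Hrc (6.67), the helicase gene Blm (6.43), 2810433D01Rik (6.42) and the phosphodiesterase gene Pde3b (6.29) followed. Lars2, the mitochondrial leucine tRNA ligase gene, had 4220 FPKM in MVH IP and 77.3 in round spermatids, a difference of 6.22.

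The control IP held part of these genes too. Smc6 had 1154 FPKM in the ACR IP and 26.6 in the lysate of the same table, and Lars2 had 623 FPKM in the ACR IP and 502 in that lysate. Of the 70 genes that were at least 2-fold higher in MVH IP and listed in the ACR table, 23 (32.9%) were at least 2-fold above the lysate in the ACR IP, against 8 of 180 (4.44%) of the genes that were not higher. Many were listed at 0 in the ACR IP, 23 of the 70 and 89 of the 180. The median log2 difference from the lysate, before centring, was -2.69 for the 70 and -3.94 for the 180. Kit, a receptor gene of spermatogonia, had 444 FPKM in MVH IP and 25.05 in round spermatids, a difference of 4.57, and 54.6 FPKM in the ACR IP and 1.65 in its lysate.

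Of the 40 named genes at least 2-fold lower in MVH IP, 25 were above 0 there and 15 were listed at 0. Among genes at or above 10 FPKM in both columns the lowest was Tmem38b, a gene for an intracellular cation channel, with 436 FPKM in MVH IP and 8807 in round spermatids, a difference of -3.86; it had 299.7 FPKM in the lysate and 121 in the pellet. Gm12191 (-1.52), 1700020L24Rik (-1.14) and the chromatin reader gene Spin1 (-1.12) followed at much smaller size. Of the late spermatid list, 34 genes stood in the MVH IP table and only 3 were shared, none past 2-fold: Prm1, the protamine gene, had 28.3 FPKM in MVH IP and 26.8 in round spermatids (0.55), Ldhc had 0.22 and Fhl4 0.43. Of the proteins of the granule and the piRNA pathway only Ddx25 (0.60) and Eif2c2 (0.94), the gene for Argonaute 2, were shared. The 6 kept ribosomal protein genes had a median of 0.04, with Rps20 (2.31) and Rplp1 (1.54) higher and Rps29 (-1.78), listed at 0 in MVH IP, lower. Tex101, a germ cell surface gene, was at 1.65 FPKM in MVH IP and 13.4 in round spermatids (-1.97).

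Assembled transcripts that were lower in MVH IP included the strongest of the round spermatids. Cuff.2814 (chr2:151077380-151077787) had 2675 FPKM in MVH IP and 13231 in round spermatids, a difference of -1.83. Cuff.2816 and Cuff.2820, of the same 161745 bp, had -1.38 and -1.53, whereas Cuff.2815 (0.33) and Cuff.2817 (-0.16) between them did not reach 2-fold. Cuff.2820 and Cuff.2816 had lysate levels close to MVH IP, with differences from the lysate of -0.32 and -0.55, while Cuff.2814 had -1.74. Upward, Cuff.3159 had 2242 FPKM in MVH IP and 65.4 in round spermatids (5.55), with 729 FPKM in the ACR IP and 18.2 in its lysate.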

How the data were processed

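Small RNA was measured in 8 libraries and deposited in 5 tables; the FPKM values of MVH IP (2 libraries, 1 column) and round spermatids (1 library) are the authors' own, and per the file headers only the round spermatid column names that unit, which for the other tables was read from the values and the submitters' processing notes. Those notes name TopHat, Cuffdiff and mm9, with no versions or roles; how the 2 MVH IP libraries make 1 column was not given in the sources used. Of its rows, 14 were sums over several transcripts of 1 symbol and locus, and 1 column of the MVH IP table, which belongs to no sample here, was not used. The pellet column is the authors' value for both pellet samples. The whole sets of rows were matched by symbol and locus; tables were normalized separately, so levels were centred and no test was run.

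Implied reads are FPKM times the Cufflinks effective length, with a fragment mean of 200, an SD of 80 and a minimum of 15; the length was that of the locus for 108 microRNA genes and that of the RefSeq hairpin for 60. The method was tested on simulated data. Named rows were taken by rule: by class the 6 highest and 6 lowest differences at or above 10 FPKM in both columns, the 10 highest rows and 5 highest clusters of each column, every member of lists of up to 8 or the 4 most shifted of longer ones, and the top rows at 0 in 1 column; rows outside the rule were named after their values were seen. The members and lists were chosen with earlier results of these data known. Alternatives covered pseudocount, filter, centre, matching and copies. The work used Python 3.11.15 with pandas 2.3.3, numpy 2.4.6, scipy 1.17.1 and, for figures, matplotlib 3.10.9.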

Additional observations from a re-analysis of the deposited data

How the results depend on the processing

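No paired analysis was possible because each group has 1 column of values. Over the 12 alternatives that keep the piRNA clusters as the centre, the microRNA median ran from 1.93 to 2.41 against 2.37. Among the named rows, 13 moved by over 1.5-fold with a pseudocount of 0.1 FPKM and 20 with 10 FPKM, and Rps29 alone changed sign, to 0.0035 with 10 FPKM. With 0.1 FPKM the structured RNA median was -11.4, and with 10 FPKM it was -4.78, that of assembled transcripts -0.47 and the count of lower rows 103 in place of 170. Requiring 10 FPKM in both columns turned the structured and assembled medians to 0.35 and 0.64, with 34 lower rows, and requiring values above 0 turned them to 2.43 and 0.77, with 56; under either, 0 lists had a median of -1 or less, against 1. Here the rows listed at 0 are left out by construction.

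Other centres move every value by a constant. In the order clusters, microRNA genes, structured RNA, named genes and assembled transcripts, the medians were -0.46, 1.78, -8.66, -0.17 and -2.01 with all shared rows as the centre. With the column sums they were -1.34, 0.90, -9.54, -1.06 and -2.90, with 135 rows higher, 461 lower, and 8 lists at 1 or more and 3 at -1 or less, against 14 and 1. With the microRNA genes as the centre they were -2.73, -0.49, -10.9, -2.44 and -4.29, with 73 rows higher, 639 lower, and 4 and 6 lists; 33 of the 138 named rows past 2-fold then change sign, against 8 with the column sums. Leaving out numbered near-identical copies moved 4 of 16 list medians by over 1.5-fold: let-7 to 2.48, X-linked testis microRNAs to 2.11, the miR-23, miR-27 and miR-24 clusters to 3.06, and vessel wall and muscle to 2.13. Loci of at least 200 bp left 3 lists at 1 or more, since most microRNA loci are shorter.

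After seeing the data, 3 further alternatives were added. With at least 5 implied reads in both columns, 72 rows were higher, 8 lower and 0 lists at -1 or less. Leaving out cluster 177, or the microRNAs of other tissues, kept every class median and count within 1.5-fold. Depth limits the microRNA genes most: 88 had fewer than 5 MVH IP reads and 49 fewer than 5 round spermatid reads.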

Other observations

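Rows that carry a symbol in only 1 of the tables, or at another locus, could not be compared. There were 8132 such rows for MVH IP and 187 for round spermatids. In the MVH IP table the highest were Mir468 with 883321 FPKM, Mir22 with 397585 FPKM, Mir469, described below, and Mir21, a microRNA common in somatic cells, with 85856 FPKM. In the round spermatid table they were Mir469 with 272881 FPKM, the small nucleolar RNA Snord69 with 21057 FPKM and Mir31 with 13033 FPKM. Mir469 also stood in the MVH IP table, with 154149 FPKM, at chr5:113772106-113772179, whereas the round spermatid table places it at chr5:115300315-115302629, the locus that both tables give to piRNA cluster 39. Of the miR-17-92 members, Mir92-1, which carries the miR-92a sequence, was in the MVH IP table with 68815 FPKM and had no matching row in round spermatids.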
